A study of Rattus norvegicus and Bos taurus with 6 samples.

Results

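Stromal nuclei of 2 rat white fat depots were examined in the Parse single-nucleus RNA-seq libraries labelled mesPVAT (mesenteric perivascular fat) and RP fat (retroperitoneal fat). A nucleus was selected when its summed UMIs (counted transcripts) over Pdgfra, Dcn, Fbn1, Col1a2, Bicc1, Mfap5, Scara5, Dpp4 and Pi16 were at least 2 and exceeded those over 11 genes of other cell types. The other genes were Plin1, Adipoq and Lipe of adipocytes, Ptprb, Pecam1 and Flt1 of endothelium, Ptprc, Mrc1 and Dock2 of immune cells, and Notch3 and Rgs5 of mural cells. The rule selected 243 of 3028 nuclei in the library labelled mesPVAT, or 8.03% (exact binomial 95% interval 7.08 to 9.05). It selected 113 of 2805 nuclei in the library labelled RP fat, or 4.03% (3.33 to 4.82). These 356 of 5833 nuclei belong to a series of 19424 nuclei from 6 libraries.

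The study prepared nuclei from fat depots of male Dahl salt-sensitive SS/HsdMcwiCrl rats without disease, obtained from Charles River and snap frozen, and from cow fat. No treatment was given, the age is not given in the sources used here, and all rat groups share this strain and sex. The rat Parse libraries were mesPVAT, RP fat, thoracic aortic PVAT (taPVAT) and subscapular brown fat (BAT), and a separate mesPVAT library was made with the 10x Genomics kit after another isolation protocol. Each depot had 1 library and no replicate (the 10x library is another batch), so intervals cover counting error only and no difference between depots was tested. The taPVAT nuclei were spun at lower force than the white fat nuclei, so that depot and preparation cannot be told apart. The depths that the study gives for mesPVAT and RP fat run in the opposite order from those of the deposited libraries with these labels. Depots are named here as the libraries are labelled, and every direction between the depots rests on those labels. No barcode was shared between any pair of the 5 rat libraries (0 shared). The Parse libraries lay in different barcoding wells and the 10x barcodes are of another form, so none could match and nothing is read from this.

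Adipose stromal progenitors are fibroblast-like cells that lie around vessels and in the connective tissue of fat, make collagens and elastic fibres, and can give rise to new adipocytes. Pdgfra encodes a PDGF receptor, Dcn a small proteoglycan, Fbn1 the fibrillin of microfibrils, and Col1a2 a chain of collagen I. In mouse and human fat, Dpp4 and Pi16 mark cells of the interstitial layer, and genes such as Col15a1, Col4a1 and Pparg mark cells closer to the adipocyte fate.

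The selected stromal nuclei were poorly sampled. In mesPVAT they held 150260 of the 1656726 UMIs of the library, with a median of 479 UMIs and 421 genes per nucleus against 334 UMIs and 293 genes in the other nuclei. In RP fat they held 65496 of 845316 UMIs, with a median of 415 UMIs and 378 genes against 207 UMIs and 192 genes. Under the same rule the selected nuclei of the brown depots were the shallower ones, with medians of 1069 against 1279.5 UMIs in taPVAT and 1106 against 1742 in BAT. Nuclei selected on adipocyte and endothelial genes had medians of 701.5 and 658 UMIs in mesPVAT and 411 and 520.5 in RP fat. The share selected moved with depth, from 2.31% of mesPVAT nuclei under 200 UMIs to 11.3% of those with 800 or more. In RP fat it moved from 0.998% to 15.2% over the same classes. One RP fat nucleus of 5611 UMIs supplied 8.57% of the stromal UMIs of that library, where the next deepest had 2048. Drawn down to 200 UMIs each, with shallower nuclei left out, the rule selected 3.64% (2.95 to 4.45) in mesPVAT and 2.79% (2.02 to 3.76) in RP fat. The nuclei left out numbered 476 and 1302. At equal depth the intervals of both depots overlapped, and at full depth they did not.

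Many stromal nuclei sat close to the threshold. In mesPVAT, 105 had exactly 2 UMIs of the selecting genes, 60 had 3, 23 had 4 and 55 had 5 or more. Just outside were 248 nuclei with 1 such UMI and none of the opposing genes, and 21 with equal sums. In RP fat, 70 stromal nuclei had exactly 2 such UMIs, 17 had 3, 12 had 4 and 14 had 5 or more. Just outside were 285 nuclei with 1 such UMI and no opposing UMI, and 21 with equal sums. At least 2 different selecting genes were seen in 192 of 243 stromal nuclei of mesPVAT and 82 of 113 of RP fat. Fbn1 was the only selecting gene in 29 and 19 nuclei, respectively.

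The selecting genes are given as a description, since they chose the nuclei. Fbn1 had 378 UMIs in the stromal nuclei of mesPVAT, found in 166 of them, and 135 UMIs in RP fat, found in 76. Pdgfra had 53 UMIs in mesPVAT and 39 in RP fat, a level of 353 and 595 CPM (UMIs on a counts-per-million scale of the summed stromal nuclei). Scara5, a ferritin receptor, was seen in 84 of 243 stromal nuclei of mesPVAT and 21 of 113 of RP fat, a level of 832 and 321 CPM. Bicc1, which encodes an RNA-binding protein, had 127 and 52 UMIs. Dcn and Mfap5, a microfibril gene, were sparse, with 24 and 12 UMIs in mesPVAT and 7 and 8 in RP fat. Pi16 had 18 UMIs in mesPVAT and 4 in RP fat, and Dpp4 had 19 and 7. All 9 selecting genes were seen in the stromal nuclei of both libraries. Fbn1, Col1a2, Bicc1 and Scara5 had the most UMIs in mesPVAT, and the interstitial markers had few.

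**Figure D1:**
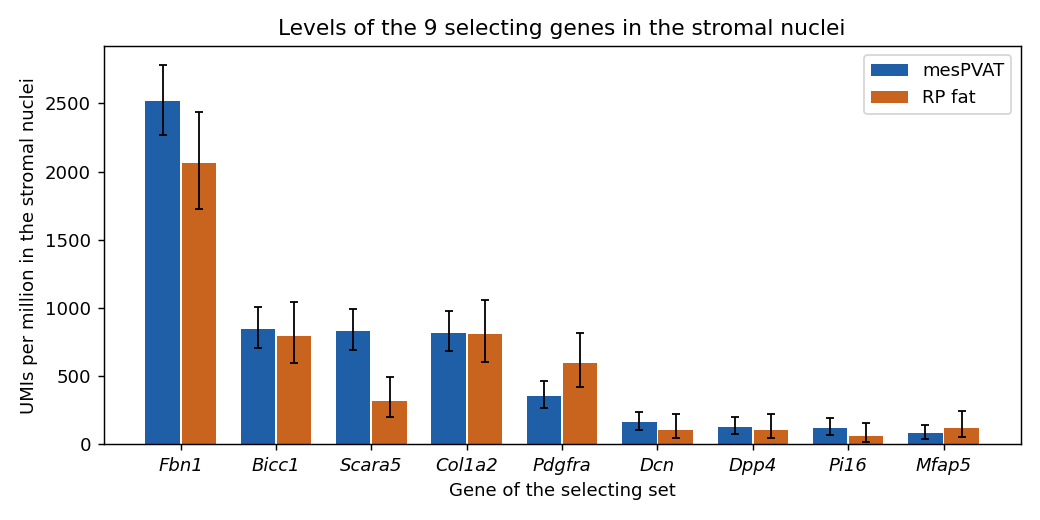
Bars show the CPM of the 9 selecting genes in the stromal nuclei of mesPVAT (blue, 243 nuclei) and RP fat (orange, 113 nuclei), with exact Poisson 95% intervals. Scara5 was at 832 CPM in mesPVAT and 321 in RP fat, and Pdgfra at 353 and 595.

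These genes are placed by RefSeq on the GRCr8 assembly. Fbn1 (ENSRNOG00000007302) lies on chromosome 3 from 133007693 to 133204277. Pdgfra (ENSRNOG00000002244) lies on chromosome 14 from 33360027 to 33408604. Pi16 (ENSRNOG00000000525) lies on chromosome 20 from 7377739 to 7387003.

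Genes outside the rule were then compared between the stromal nuclei and all other nuclei of the same library. Among 14194 genes with at least 20 UMIs over both pools in mesPVAT, 7.19% were at least 2-fold higher in the stromal nuclei and 12.1% at least 2-fold lower. Among 10303 such genes in RP fat, these shares were 7.55% and 12.8%. Many of these genes had few UMIs in the stromal nuclei, so single genes are given with their counts and with exact conditional 95% intervals of the ratio. The other nuclei held most UMIs of each library, so genes lower in the stromal nuclei reached the minimum mainly through the other nuclei. Counts of lower genes are therefore a description, and nothing is read from a single list gene named as lower without its UMIs. The median log2 ratio over all genes, the rule's genes included, was -0.04 in mesPVAT and -0.07 in RP fat.

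In mesPVAT, Ssc5d, which encodes a secreted scavenger receptor protein, had 34 UMIs in the stromal nuclei and was 6.96-fold higher (4.36 to 11.0) than in other nuclei. C1r, a complement protease, had 20 UMIs and was 6.47-fold higher (3.49 to 11.7). C7, a complement component, had 68 UMIs in 39 nuclei and was 5.98-fold higher (4.36 to 8.15). Complement genes of this kind are made by fibroblasts in many tissues. Col1a1, the other chain of collagen I, had 115 UMIs in 59 nuclei and was 5.36-fold higher (4.24 to 6.76). Lsp1, an actin-binding gene also known from leukocytes, had 122 UMIs in 80 nuclei and was 5.82-fold higher (4.62 to 7.31). Tnnt3, a troponin of fast muscle, was 5.36-fold higher (4.07 to 7.001).

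Tnnt3 and Lsp1 are neighbours on chromosome 1 of GRCr8, where Lsp1 ends at 207077891 and Tnnt3 starts at 207082014, and whether Tnnt3 UMIs come from Lsp1 transcripts was not tested. Striated muscle genes as a list were not higher in the stromal nuclei, with a ratio of 0.903 (0.637 to 1.25) in mesPVAT and 0.866 (0.521 to 1.36) in RP fat. The other leading genes of mesPVAT were Gfpt2 (5.22-fold), an enzyme of hexosamine synthesis, Dbn1 (5.12-fold), Mmp14 (4.80-fold), a membrane collagenase, Fam20a (4.46-fold), Mnda (4.23-fold) and Fbln2 (4.04-fold), a matrix protein. Of the leading genes, 3 have only clone or identifier names, AABR07044388.2 (5.12-fold), AABR07054614.1 (4.66-fold) and ENSRNOG00000084804 (4.21-fold).

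In RP fat the leading ratios were smaller and rested on fewer UMIs. Antxr2, a collagen-binding receptor, had 24 UMIs in 20 nuclei and was 4.08-fold higher (2.45 to 6.57). Gask1a had 31 UMIs in 20 nuclei and was 3.73-fold higher (2.41 to 5.63). Eln, which encodes elastin, had 27 UMIs in 13 nuclei and was 2.90-fold higher (1.83 to 4.44). Col3a1 had 84 UMIs in 38 nuclei and was 2.43-fold higher (1.90 to 3.08), Col1a1 was 2.77-fold higher (1.91 to 3.93) and C7 was 2.77-fold higher (1.70 to 4.36). Tnnt3 (3.52-fold), Lsp1 (2.91-fold), Medag (2.43-fold), an adipogenesis gene, and Adgrd1 (2.33-fold) also led, with Hp1bp3 (3.61-fold), Luzp1 (2.63-fold), Cux2 (2.41-fold), Zfand3 (2.33-fold) and Tmeff2 (2.25-fold).

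C7, Lsp1, Col1a1 and Tnnt3 were among the 15 leading genes of both depots. Of the leading genes of RP fat, Antxr2 was 2.75-fold higher (1.91 to 3.89) in mesPVAT, Gask1a 3.87-fold (2.91 to 5.10) and Medag 3.45-fold (2.62 to 4.50). Eln had 27 UMIs and a ratio of 0.963 (0.624 to 1.43) in mesPVAT. For Col1a1 the mesPVAT interval lay above that of RP fat, while for Gask1a and Antxr2 the intervals overlapped.

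**Figure D2:**
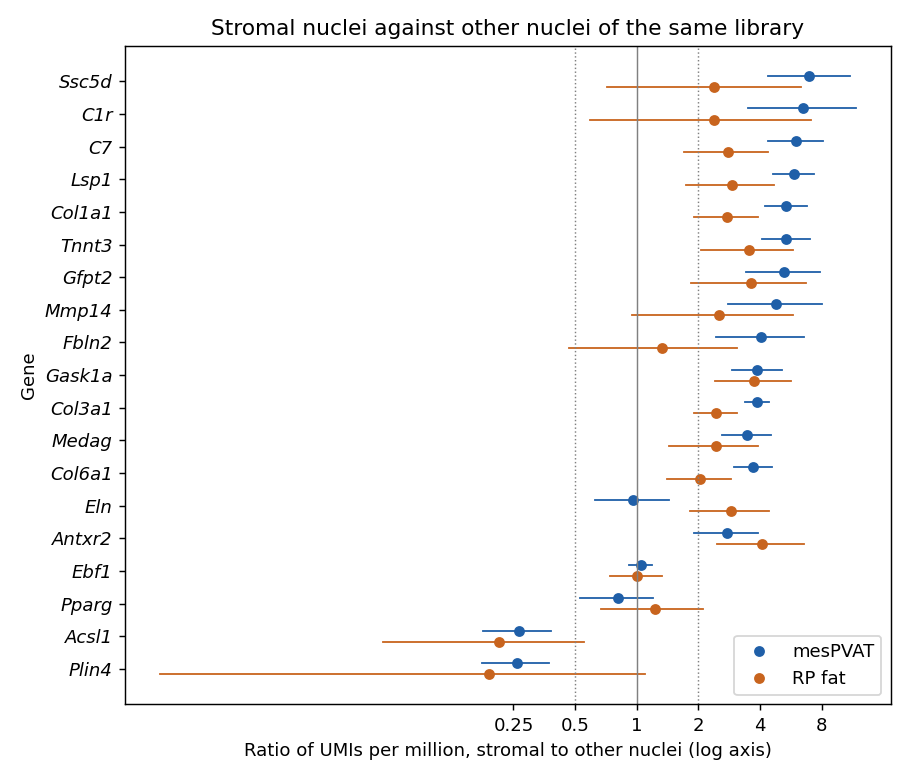
Ratio of CPM in the stromal nuclei to that in other nuclei of the same library, for mesPVAT (blue) and RP fat (orange), on a log axis with exact 95% intervals and dotted lines at 2-fold. Col1a1 was 5.36-fold higher in mesPVAT and 2.77-fold in RP fat, and Ebf1 lay near 1 in both.

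Each library was split over 2 sublibraries, and Col1a1, C7 and Gask1a were each over 2-fold higher in both sublibraries of both depots. Col1a1 was 5.76-fold and 4.96-fold higher in sublibraries 1 and 2 of mesPVAT, and 3.09-fold and 2.43-fold higher in those of RP fat. C7 was 5.94-fold and 5.97-fold higher in mesPVAT, and 3.49-fold and 2.16-fold (1.02 to 4.17) higher in RP fat. Adgrd1 was not, at 3.64-fold (1.80 to 6.83) and 1.18-fold (0.364 to 2.95) in the sublibraries of RP fat. By barcoding well, C7 in RP fat was at 1.95-fold (0.892 to 3.83) and 3.93-fold (1.97 to 7.38). Gask1a varied between sublibraries, at 2.80-fold and 5.10-fold in mesPVAT and 2.22-fold (1.06 to 4.25) and 6.23-fold in RP fat. In sublibrary 2 of RP fat, Lsp1 was at 2.17-fold (0.876 to 4.71) and Tnnt3 at 2.12-fold (0.793 to 4.84). In sublibrary 1 of RP fat, Lsp1 was at 3.61-fold and Tnnt3 at 5.11-fold.

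A list of 30 further stromal genes, none used by the rule, was higher as a sum. In mesPVAT it made up 12598 CPM of the stromal nuclei, 1.97-fold (1.88 to 2.07) that of other nuclei. In RP fat it made up 8016 CPM, a 1.51-fold ratio (1.38 to 1.65). Of its genes with at least 20 UMIs, 13 of 25 were at least 2-fold higher in mesPVAT and 2 lower, with a median log2 ratio of 1.08. In RP fat 6 of 24 were higher and 0 lower, with a median of 0.38. Over all genes 7.19% were higher and 12.1% lower in mesPVAT, and 7.55% and 12.8% in RP fat. Col3a1 was the most abundant gene of the stromal list in both depots. Col6a1 and Col6a2, chains of collagen VI, were higher in both depots, at 3.69-fold and 2.20-fold in mesPVAT and 2.03-fold and 2.20-fold in RP fat. In RP fat Col6a1 was at 3.34-fold (2.17 to 5.005) in one barcoding well and 0.721 (0.283 to 1.54) in the other. Lama2, a laminin chain, was 2.28-fold higher (1.87 to 2.76) in mesPVAT and 1.27-fold (0.870 to 1.80) in RP fat.

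Not every stromal gene set these nuclei apart. Ebf1, a transcription factor shared by progenitors and adipocytes, had a ratio of 1.05 (0.919 to 1.19) in mesPVAT and 0.997 (0.736 to 1.32) in RP fat. The genes of the stromal list at least 2-fold lower in mesPVAT were C3 and Abca6, each with 1 UMI in the stromal nuclei. Both passed the minimum over both pools through the other nuclei, so nothing is read from their low ratios.

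The sum of 30 matrix genes was 1.69-fold higher (1.57 to 1.82) in the stromal nuclei of mesPVAT and 1.23-fold (1.08 to 1.40) in those of RP fat. In mesPVAT 11 of 29 features were at least 2-fold higher and 0 lower, against 7.19% and 12.1% of all genes. Among those higher were Mmp14, Mmp2, Col5a1, Col14a1, Postn and both identifiers of Timp2. In RP fat 4 of 29 were higher, namely Eln, Mmp14, Adamts5 and Tnc, and 1 was lower, Loxl1, where 7.55% of all genes were higher and 12.8% lower.

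The sum of genes of the interstitial layer was 1.60-fold higher (1.41 to 1.80) in mesPVAT and 1.25-fold (1.04 to 1.501) in RP fat. In mesPVAT 5 of 15 were at least 2-fold higher, Gfpt2, Cmah, Cd55, Igfbp6 and Ackr3. In RP fat 1 of 12 was higher, Gfpt2, at 3.62-fold (1.84 to 6.71), and 1 lower, Anxa3. Over all genes 7.19% were higher and 12.1% lower in mesPVAT, and 7.55% and 12.8% in RP fat. The interstitial counts of RP fat were thus near the shares over all genes. Genes of committed preadipocytes had a ratio of 1.22 (1.12 to 1.32) in mesPVAT and 1.10 (0.935 to 1.29) in RP fat. Bmper, a BMP-binding protein, was the 1 of 16 that was at least 2-fold higher in mesPVAT, at 2.55-fold (1.96 to 3.28). Apoe was the 1 that was lower there. In RP fat 0 of 13 were higher and 1 was lower, Fgf10. None of these counts of committed genes exceeded the share over all genes. Pparg, the main regulator of fat cell formation, had 27 UMIs and a ratio of 0.813 (0.528 to 1.20) in mesPVAT, and 15 UMIs and 1.23 (0.672 to 2.10) in RP fat.

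Among adipogenic transcription factors, Zfp521, which holds back fat cell formation, was 2.21-fold higher (1.75 to 2.77) in mesPVAT and had a ratio of 0.812 (0.495 to 1.26) in RP fat. It was the 1 of 18 that was at least 2-fold higher in mesPVAT, where 4 were lower. In RP fat 0 of 12 were higher and 2 lower. Over all genes the shares higher and lower were 7.19% and 12.1% in mesPVAT and 7.55% and 12.8% in RP fat. Hormone receptor and clock genes had ratios of 0.967 (0.867 to 1.08) in mesPVAT and 0.954 (0.790 to 1.14) in RP fat.

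Signalling genes had a ratio of 1.20 (1.11 to 1.29) in mesPVAT and 1.35 (1.21 to 1.505) in RP fat. In mesPVAT 3 of 28 were at least 2-fold higher, Gli2 of the hedgehog pathway, Rspo3 and Sfrp4 of the Wnt pathway, and Bmp4 was lower. In RP fat 6 of 25 were higher, Tgfbr1, Rspo3, Sfrp1, Gas6, Pdgfrb and Bmpr2, and Fzd4 was lower. Over all genes 7.19% were higher and 12.1% lower in mesPVAT, and 7.55% and 12.8% in RP fat. The count of signalling genes higher in mesPVAT was thus near the share over all genes. Rspo3 had 6 UMIs in mesPVAT and 7 in RP fat, so its ratios of 2.15 (0.727 to 5.29) and 3.62 (1.31 to 8.72) were loosely bounded. Complement and cytokine genes had a ratio of 1.79 (1.52 to 2.11) in mesPVAT and 1.53 (1.15 to 2.01) in RP fat, with C7 as the most abundant. In mesPVAT 2 of 10 were at least 2-fold higher, C1r and C7, and 0 lower, with a median log2 ratio of 0.20. In RP fat 4 of 9 were higher and 2 lower, Il6st and Osmr, with a median of 0.74. Il6st had 1 UMI in these stromal nuclei and 64 in the other nuclei of RP fat, so nothing is read from its low ratio.

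**Figure D3:**
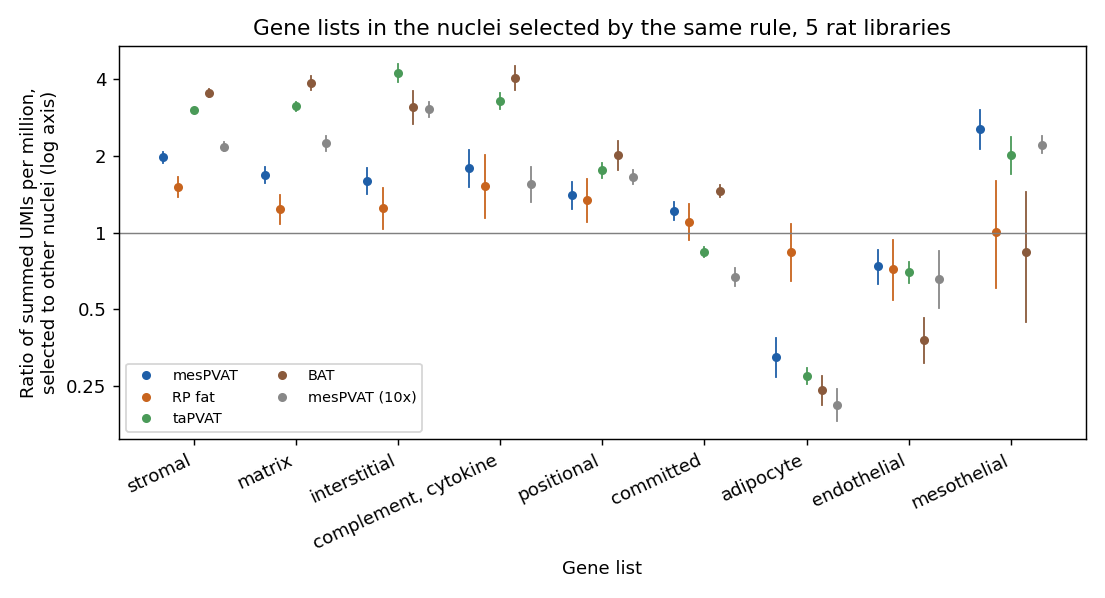
Ratio of summed CPM in nuclei selected by the same rule to that in other nuclei, for 9 gene lists in 5 rat libraries, on a log axis with exact 95% intervals. The stromal list was at 1.97 for mesPVAT and 1.51 for RP fat, against 3.02 for taPVAT, 3.53 for BAT and 2.18 for the 10x mesPVAT library.

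Nuclei selected by the same rule in the brown depots stood further apart from the rest of their libraries. The ratio of the stromal list was 3.02 (2.94 to 3.09) in 272 nuclei of taPVAT and 3.53 (3.40 to 3.66) in 87 nuclei of BAT. In 426 nuclei of the 10x mesPVAT library it was 2.18 (2.09 to 2.27). The median depth of these nuclei was 1069 UMIs in taPVAT, 1106 in BAT and 201.5 in the 10x library. Depot, depth and preparation cannot be told apart in these comparisons. Of the UMIs of the selecting genes, 48.5% lay in the stromal nuclei of mesPVAT and 39.7% in those of RP fat, against 58.7% in taPVAT, 31.8% in BAT and 62.6% in the 10x mesPVAT library. These shares are of the genes that chose the nuclei and are a description only.

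Detection was also compared at equal depth, in nuclei thinned to 200 UMIs. Col3a1 was seen in 27.2% (21.5 to 33.4) of 232 stromal nuclei of mesPVAT, against 2.76% of 434 nuclei selected on the adipocyte genes and 5.97% of 134 selected on the endothelial genes. Unthinned, these shares were 49.8%, 16.4% and 20.9%, at median depths of 479, 701.5 and 658 UMIs. In RP fat Col3a1 was seen in 20 of 100 stromal nuclei (12.7% to 29.2%), against 4.92% of 61 adipocyte-selected and 5.26% of 38 endothelial-selected nuclei. Unthinned, these were 33.6%, 10.7% and 19.0%, at median depths of 415, 411 and 520.5 UMIs. Thinning left out 11 stromal, 12 adipocyte-selected and 5 endothelial-selected nuclei in mesPVAT, and 13, 14 and 4 in RP fat. Among all other nuclei, thinned alike, Col3a1 was seen in 8.15% (7.07 to 9.33) of 2320 in mesPVAT. In RP fat it was seen in 8.77% (7.34 to 10.4) of 1403 other nuclei. The contrast of the stromal nuclei with all other nuclei was thus smaller than with the adipocyte-selected and endothelial-selected nuclei. Thinning left out 465 and 1289 other nuclei. Lsp1 was seen in 16.4% (11.9 to 21.8) of the stromal nuclei of mesPVAT. It was seen in 0.922% of the adipocyte-selected, 1.49% of the endothelial-selected and 2.93% of all other nuclei. Ebf1 was seen in 27.6% (21.9 to 33.8) of the stromal nuclei of mesPVAT. It was seen in 32.5% of the adipocyte-selected nuclei and 26.4% (24.6 to 28.3) of all other nuclei. In RP fat Ebf1 was seen in 8 of 100 stromal nuclei (3.52% to 15.2%) against 27.9% (17.1 to 40.8) of the adipocyte-selected nuclei. Among all other nuclei of RP fat Ebf1 was seen in 196 of 1403 (12.2% to 15.9%). This interval overlapped that of the stromal nuclei. Lsp1 was seen in 8 of 100 stromal nuclei of RP fat (3.52% to 15.2%). It was seen in 3.28% (0.400 to 11.3) of the adipocyte-selected nuclei and 2.42% (1.68 to 3.37) of all other nuclei.

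Markers of other cell types were present in the stromal nuclei. At least 1 UMI of an opposing gene was found in 103 of 243 stromal nuclei of mesPVAT and 39 of 113 of RP fat. A further adipocyte list was lower in mesPVAT, with 912 CPM and a ratio of 0.325 (0.272 to 0.385), and 9 of 12 genes were at least 2-fold lower. In RP fat it was at 1008 CPM, a ratio of 0.842 (0.646 to 1.08), and 2 of 11 were lower. Over all genes 12.1% were lower in mesPVAT and 12.8% in RP fat. In the other nuclei this list was at 2807 CPM in mesPVAT and 1196 in RP fat. Its most abundant gene in the stromal nuclei was Plin4 with 31 UMIs in mesPVAT and Acacb with 11 in RP fat, where 1 gene of the list was at 0. The lower ratio of RP fat in the stromal list accompanied this smaller separation, and its part in that result was not tested.

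The endothelial list had ratios of 0.737 (0.631 to 0.856) and 0.723 (0.546 to 0.940), led by Mecom with 58 and 16 UMIs. The immune list had ratios of 1.04 (0.803 to 1.34) and 0.698 (0.466 to 1.01), led by Skap1 with 17 and 10 UMIs. In mesPVAT 3 of its 9 genes were at least 2-fold higher, Cybb, Bcl11b and Cd163, with 4, 8 and 12 UMIs. In RP fat 0 of 7 were higher. Over all genes 7.19% were higher in mesPVAT, and 7.55% in RP fat. The part of these immune genes in the ratios of Lsp1 and Mnda was not tested. The mural list had ratios of 0.983 (0.873 to 1.10) and 1.05 (0.839 to 1.29), led by Cald1. Schwann, lymphatic, brown adipocyte and early response genes had ratios of 0.738, 1.27, 1.03 and 1.48 in mesPVAT and 1.16, 0.698, 0.747 and 1.04 in RP fat. Pancreatic genes had 4 UMIs in the stromal nuclei of mesPVAT and 1 in RP fat.

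Mesothelial genes, which mark the lining of the abdominal cavity, were higher in the stromal nuclei of mesPVAT. The list had 163 UMIs and a ratio of 2.55 (2.13 to 3.03). All 4 of its genes with at least 20 UMIs, Gpm6a, Pkhd1l1, Msln and Upk3b, were at least 2-fold higher, against 7.19% of all genes. None of its genes in the file was at 0. In RP fat it had 20 UMIs, a ratio of 1.01 (0.605 to 1.59), and 5 genes at 0. In mesPVAT 48 of 243 stromal nuclei held such a UMI and 18 held at least 2, against 15 and 1 in RP fat. Without the 48 nuclei the stromal list of mesPVAT was at 2.09-fold (1.97 to 2.21). Without the 15 such nuclei of RP fat it was at 1.63-fold (1.47 to 1.80) there.

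Wt1, a transcription factor of mesothelium and of visceral fat progenitors, had 22 UMIs in 14 stromal nuclei of mesPVAT and was 3.87-fold higher (2.25 to 6.43). Without nuclei holding a mesothelial UMI it had 10 UMIs and a ratio of 2.50 (1.14 to 4.95). Of the 22 UMIs, 20 came from nuclei of one barcoding well and 2 from the other, where the ratio was 1.19 (0.135 to 4.87). In RP fat Wt1 had 3 UMIs and a ratio of 1.43 (0.276 to 4.68). Several other positional genes were sparse. Gata6 had 8 UMIs in mesPVAT and 5 in RP fat, Tbx18 had 6 and 5, and Hoxa9 had 17 and 1. Of 52 positional genes in the file, 25 were at 0 in the stromal nuclei of mesPVAT and 27 in those of RP fat.

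The stromal nuclei were divided by whether they held a UMI of Dpp4, Pi16 or an interstitial gene, which 158 of 243 did in mesPVAT and 76 of 113 in RP fat. Nuclei with such a UMI were deeper, with medians of 544 against 358 UMIs in mesPVAT and 444.5 against 312 in RP fat. The committed list had ratios of 0.775 (0.657 to 0.917) in mesPVAT and 0.702 (0.498 to 1.004) in RP fat, given as a description. The stromal list had ratios of 0.916 (0.828 to 1.02) and 0.912 (0.745 to 1.12), and the matrix list 0.915 (0.786 to 1.07) and 1.06 (0.789 to 1.46). Dpp4 and Pi16 were also among the genes that selected the nuclei, the division was made on counts of the same nuclei, and depth differed between its sides, so no difference is read from it.

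The stromal nuclei of both depots were then compared directly, in CPM of each pool. Of 2301 genes with at least 20 UMIs over both pools, 7.13% were at least 2-fold higher in RP fat and 19.9% at least 2-fold lower, with a median log2 ratio of -0.15. Scaled by that median, 235 genes were at least 2-fold higher and 369 lower, against 164 and 458. With the mesPVAT pool drawn down to the total of RP fat, 85 of 1120 genes (7.59%) were higher and 211 (18.8%) lower. The stromal list was at 0.636 (0.577 to 0.701) of its mesPVAT level, with 0 of 18 genes at least 2-fold higher and 6 lower, Col5a2, Abca8a, Gsn, Col6a3, Ebf1 and Tshz2. The first 4 of these had 11 to 16 UMIs in RP fat and passed the minimum through mesPVAT, so the count is a description, while the sums over lists used no minimum. The matrix list was at 0.699 (0.607 to 0.804) and the committed list at 0.560 (0.469 to 0.665). With no opposing UMI allowed the committed list was at 0.798 (0.626 to 1.009). After thinning it was at 0.651 (0.375 to 1.085) and the matrix list at 0.862 (0.594 to 1.23), so these intervals reached 1. In the nuclei that were not selected, the same ratios were 0.831 (0.801 to 0.862), 0.957 (0.912 to 1.004) and 0.618 (0.586 to 0.652). In the main setting the intervals of the stromal and matrix lists did not overlap between selected and other nuclei, and those of the committed list did. With a selecting sum of at least 3 the matrix list was at 0.813 (0.675 to 0.973). That interval and the thinned one reached into the main interval of the other nuclei.

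Of single genes of these lists, Col4a1, a basement membrane collagen, had 229 UMIs in mesPVAT and 40 in RP fat, a ratio of 0.401 (0.279 to 0.563). Col5a1 had 136 and 24 UMIs, a ratio of 0.405 (0.251 to 0.628). Postn, a matricellular gene, had 39 UMIs in 20 nuclei and 2 UMIs in 2 nuclei, a ratio of 0.118 (0.0138 to 0.454). Col1a1 was at 0.798 (0.542 to 1.15) and C7 at 0.810 (0.486 to 1.31), so their levels could not be told apart at this depth.

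Over all genes compared, Igfbp5, an IGF-binding protein in none of these lists, had 48 UMIs in 30 nuclei of mesPVAT and 1 in RP fat, a ratio of 0.0478 (0.00119 to 0.279). The next lowest ratios, all of genes with 1 UMI in RP fat, were those of Plin4 (31 UMIs in mesPVAT), Slk (29), Map3k1 (24), Plekha4 (22), Raph1 (22), Cdk6 (21), Med27 (21), Il6st (20) and Itga8 (20). Ldb1, Mysm1, Ncln and Kdm2a, with 20 to 28 UMIs in mesPVAT, had 0 UMIs in RP fat. All of these genes, and Postn, reached the minimum of 20 UMIs through mesPVAT alone, so the filter fixed their place at the low end and nothing is read from it. Plin4, a lipid droplet gene, was at 0.102 in the nuclei that were not selected as well.

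The highest ratio belonged to a transcript with no gene name, ENSRNOG00000088851. It had 1572 UMIs in 89 of 113 stromal nuclei of RP fat and 164 UMIs in 80 of 243 of mesPVAT, a ratio of 22.0 (18.7 to 26.0). In nuclei that were not selected the ratio was 25.1, so the difference was seen across the library. ENSRNOG00000085139 had 37 and 10 UMIs, a ratio of 8.49 (4.14 to 19.1), against 6.40 in the other nuclei. Of named genes, Jade2 (4.26), Plekha7 (4.08), Kcnb2 (4.08), Chchd6 (4.01), Cux2 (3.90) and Megf11 (3.61) were highest. They had 13 to 22 UMIs in RP fat and 7 to 14 in mesPVAT. ENSRNOG00000084491 (4.59) and ENSRNOG00000076118 (3.73) completed the list.

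Among the list genes, Eln had 27 UMIs in each depot, a ratio of 2.29 (1.30 to 4.06), against 0.763 in the other nuclei. Robo1, an axon guidance receptor, had 35 UMIs in each, a ratio of 2.29 (1.39 to 3.77), against 1.65. Bmpr2, a BMP receptor, had 12 UMIs in RP fat and 9 in mesPVAT, a ratio of 3.06 (1.18 to 8.22), against 0.833. In the further marker lists of other cell types, Acacb and Xkr4 were at least 2-fold higher in RP fat. Acacb, of the adipocyte list, had 11 and 9 UMIs and a ratio of 2.80 (1.06 to 7.66), against 1.002. Bmpr2 and Acacb barely reached the minimum, with most of their UMIs from RP fat, so nothing is read from their ratios. Xkr4, of the Schwann list, had 15 and 17 UMIs and a ratio of 2.02 (0.941 to 4.31), against 1.41. Those at least 2-fold lower were Acsl1 and Plin4 (adipocyte list), Abcc9 (mural list), and Pkhd1l1 and Gpm6a (mesothelial list). The mesothelial list was at 0.281 (0.168 to 0.449) of its mesPVAT level, and 0.710 (0.609 to 0.826) in the other nuclei. It differed between sublibraries, at 0.122 (0.0437 to 0.274) in sublibrary 1 and 0.630 (0.322 to 1.15) in sublibrary 2.

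Among the genes compared between depots, the shares in each direction differed by gene length, known for 2075 of the 2301 genes (90.2%). Among 225 genes of 20 to 50 kb, 41.8% were at least 2-fold lower in RP fat and 3.56% higher, with a median log2 ratio of -0.80. Among 504 genes of 300 kb or more, 3.77% were lower and 9.72% higher, with a median of 0.21. These genes passed a filter on UMIs summed over pools of unequal size. With the mesPVAT pool drawn down once at random to the 65496 UMIs of RP fat before the filter, 51.3% of 76 genes of 20 to 50 kb were lower and 0% higher. Of 430 genes of 300 kb or more, 18 were then lower and 56 higher. For the genes of the first filter, the medians in the nuclei that were not selected were -0.81 and 0.42. Over all genes tested in those nuclei they were 0.05, with 7.81% lower and 9.77% higher, and 0.42, with 1.07% lower and 1.61% higher. Lengths were matched for only 68.8% of those genes, so a length check over them is void. The part of gene length in the lower collagen and matrix levels was not tested. Col1a1 spans 17004 bases, Col3a1 35933 and Fbn1 196585.

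**Figure D4:**
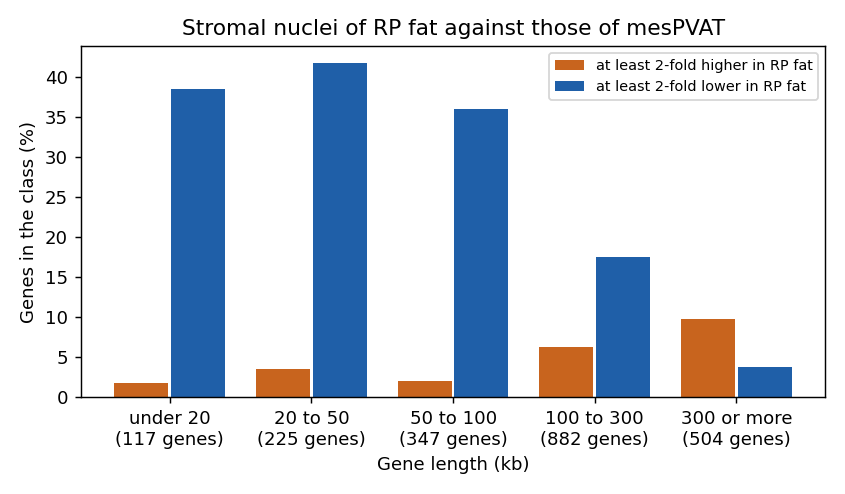
Share of genes, in percent, at least 2-fold higher (orange) or lower (blue) in the stromal nuclei of RP fat than in those of mesPVAT, by gene length in kb. The share that was lower was 41.8% among genes of 20 to 50 kb and 3.77% among genes of 300 kb or more.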

How the data were processed

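The authors separated the Parse reads by species, aligned the rat reads to GRCr8 with split-pipe and deposited UMI counts per gene and nucleus without normalization. The 10x counts are those the authors deposited after Cell Ranger, with Rnor_6.0 named in their methods. The submitters' processing notes name FastQC and Scanpy. The study's methods call doublets with scDblFinder after this step, and doublets were not removed here. The rule was applied to all deposited nuclei, and counts were summed over the selected and the other nuclei of each library. Genes needed at least 20 UMIs over both pools, and 2-fold or 0.5-fold was the limit for a difference. A pool with 0 UMIs was set at a floor of 3 counts, which was used as a bound on 1 side only. Intervals are exact at 95% and cover counting error only, with 1 library per depot and no test. Named genes are the 15 with the largest ratio in each library (at least 15 UMIs in the stromal nuclei), the 10 at each end of the comparison of depots, and list genes with at least 10 UMIs. Sparser list genes and other genes were chosen after their values were seen. The rule, members and lists were chosen with earlier results of these data known. Nuclei were thinned without replacement (seed 14). Gene lengths were matched by symbol to RefSeq on GRCr8. Python 3.11.15, numpy 2.4.6, scipy 1.17.1, pandas 2.3.3 and matplotlib 3.10.9 were used. The 2-fold calls and the intervals of the ratios were tested on simulated Poisson counts. The selection rule, the thinning, the lists and the length classes were not tested in this way.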

Additional observations from a re-analysis of the deposited data

Results flagged for a closer look

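Of 10030 genes with enough UMIs in both libraries, 1 gene, Ankrd31, was at least 2-fold apart in opposite directions in the stromal nuclei of the depots, with both intervals clear of 1. Its ratio to other nuclei was 0.254 (0.0302 to 0.948) in mesPVAT, from 2 UMIs in the stromal nuclei, and 2.68 (1.14 to 5.61) in RP fat, from 9 UMIs. The difference between depots was not tested, and the cause was not tested.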

How the results depend on the processing

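No paired analysis was possible because each depot had 1 library. Settings were the selecting sum at 1 or 3, no opposing UMI, thinning to 200 UMIs, the study's limits on nuclei, each sublibrary, the rule without Fbn1, other scalings and other minimums. Equal pool totals, single wells, the deepest nucleus left out and mesothelial nuclei left out were added after seeing the data. The stromal list stayed higher in the stromal nuclei under every setting run. The share of nuclei followed the rule. It was 16.2% in mesPVAT and 14.2% in RP fat with a sum of at least 1, 4.56% and 1.53% with 3, 4.62% and 2.64% with no opposing UMI, 3.64% and 2.79% when thinned, and 4.49% and 2.00% without Fbn1. Sublibrary 1 gave 6.99% in mesPVAT, sublibrary 2 gave 9.23% and 5.37%, and the first well of mesPVAT gave 7.04%. The ratio of the stromal list in RP fat was 1.78 with a sum of 3, 1.72 with no opposing UMI, 1.67 when thinned and 1.36 in the second well. In mesPVAT it was 1.76 with a sum of 1 and 2.09 without mesothelial nuclei. Between depots it was 0.724 with a sum of 3.

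Counts of genes past 2-fold depended on pool size and on the minimum. Genes higher in the stromal nuclei, 1020 in mesPVAT and 778 in RP fat, were 1745 and 1346 with no opposing UMI, 2148 and 1894 at 10 UMIs and 264 and 120 at 50 UMIs. In RP fat they were 364 with a sum of 1, 1352 with 3, 501 when thinned, 416 in sublibrary 2 and 1295 without Fbn1. Genes lower, 1721 and 1318, were 328 and 78 when thinned and 622 and 453 at 50 UMIs. In RP fat they were 636 with a sum of 3, 633 with no opposing UMI, 662 and 665 in the sublibraries and 750 without Fbn1. The genes tested against other nuclei numbered 14194 in mesPVAT and 10303 in RP fat in the main setting. They numbered 20011 and 16712 at 10 UMIs, 7287 and 3968 at 50 UMIs, and 5935 and 3531 when thinned. In the sublibraries of RP fat they numbered 6050 and 4572, so a smaller count need not be a smaller share. Genes higher in RP fat than in mesPVAT, 164, were 355 with a sum of 1, 78 with 3, 36 with no opposing UMI, 4 when thinned, 47 and 52 in the sublibraries, 76 without Fbn1, 661 at 10 UMIs and 16 at 50. Genes lower, 458, were 276, 162, 18, 203, 210, 281, 1015 and 127 under these settings other than the sum of 1. The genes tested between depots numbered 2301 in the main setting, 4774 with a sum of 1 and 1208 with 3. They numbered 744 with no opposing UMI and 63 when thinned, so these counts do not compare as shares. Scaling by the median ratio gave 235 higher and 369 lower, and equal pool totals gave 85 and 211. Of the lists whose interval between depots was clear of 1, 3 crossed 1, adipogenic factors to 1.11 when thinned, and endothelial and mural genes to 1.24 and 1.14 with no opposing UMI. Lists whose interval held 1 also crossed it, among them early response genes (1.57 to 0.316) and Schwann genes (1.44 to 0.738) when thinned, and signalling genes (1.10 to 0.973) in sublibrary 2, which were at 1.24 (1.04 to 1.47) in sublibrary 1 and 1.56 (1.14 to 2.12) when thinned. The matrix list was at 0.813 with a sum of 3. The cause was not tested. With so few UMIs per nucleus, genes of a few UMIs cannot be compared between depots.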

Other observations

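A few transcripts without gene names took a visible share of the UMIs. ENSRNOG00000087169 made up 3.77% of the UMIs of the stromal nuclei of mesPVAT, where it was seen in 243 of 243, and 5.48% of those of the other nuclei. In RP fat it made up 1.29% and 1.61%. In the nuclei selected by the same rule in taPVAT and BAT it made up 7.29% and 7.99%. ENSRNOG00000088851 made up 2.40% of the UMIs of the stromal nuclei of RP fat and 2.12% of the other nuclei there, and 0.109% and 0.0841% in mesPVAT. ENSRNOG00000089373 was at 0.995% in the stromal nuclei of mesPVAT and 1.32% in those of RP fat. Leaving the gene with most UMIs out of each library's total kept the stromal list at 0.635 between the depots.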
